A study of Mus musculus with 4 samples.

Results

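Methylated Pontin peaks were examined at the collagen genes, which are the 44 protein-coding genes of GENCODE vM21 whose symbol is Col, a number, a and a number, out of 21951 protein-coding genes in all. Collagens are the main structural proteins of the extracellular matrix, and fibroblasts are their main producers. Their chains wind into helical molecules that are secreted, trimmed and cross-linked. Fibrillar collagens build the fibrils that carry tension, collagen IV forms the network of basement membranes, and the other types bind fibril surfaces, form beaded filaments or hexagonal networks, or span the cell membrane. Pontin (Ruvbl1) is an ATPase of chromatin-remodelling and histone acetyltransferase complexes. The study immunoprecipitated chromatin of wild-type mouse embryonic fibroblasts (MEFs). Its antibody recognises Pontin methylated at the arginines that the study reports as sites of the arginine methyltransferase CARM1. The 4 libraries of the series are this ChIP and its input for MEFs kept in normal media and for MEFs deprived of glucose, without replicates. The labels give no starvation time. The values come from the peak list of 1 library, the ChIP under glucose starvation, which had 20765512 tags. The other libraries were not analysed on their own, so no change upon starvation was measured, no spread between cultures could be given and no test was made.

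The list holds 4311 peaks of equal width. Signals are given as tags per 10000000, with a median of 14.2 over all peaks (interquartile range 12.0 to 17.3), or 29.5 tags in this library. A peak was called a promoter peak of a gene when its centre lay within 2.5 kb of the start site (TSS) of any transcript of the gene, and a gene body peak when it lay elsewhere inside the gene. The cell type label cannot be checked by expression here, since a peak is not an mRNA level. Of 9 fibroblast marker genes, Vim and Thy1 had a promoter peak, with 18.8 and 15.2 tags per 10000000. None of the 4 epithelial, 3 endothelial, 3 blood, 3 muscle and 3 neural markers had a promoter peak, and the endothelial gene Pecam1 had a gene body peak. Over all 25 markers the share was 8.0%, against 17.1% of all protein-coding genes and 18.4% of genes of like GC content. With groups this small, the counts say nothing of the cell type.

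Of the 44 collagen genes, 1 had a promoter peak under glucose starvation, Col6a1, a share of 2.27%. The share of all protein-coding genes with a promoter peak, as given above, was 17.1%. Gene body peaks were found in 2 collagen genes, Col14a1 and Col8a1, a share of 4.55% against 2.25% of all protein-coding genes. The remaining 41 collagen genes had no peak in either position, and they include every fibrillar and every basement membrane collagen. A region that missed the authors' limits is not in the list, so a weaker signal at these genes would not be seen.

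The bases upstream of Col6a1 are shown because they lie inside the one promoter peak of the family, and those of the partner chains Col6a2 and Col6a3 and of both chains of collagen I because no peak was called there. Each line gives the 200 bases before the first TSS of the gene in GRCm38, 5′ to 3′ in the direction of transcription, and capitals mark matches on either strand to the motifs searched.
Col6a1, chr10:76726169-76726368, minus strand: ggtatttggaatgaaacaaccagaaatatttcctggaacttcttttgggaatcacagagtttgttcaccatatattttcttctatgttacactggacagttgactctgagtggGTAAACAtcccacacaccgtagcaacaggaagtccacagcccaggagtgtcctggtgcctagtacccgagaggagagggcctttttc
Col6a2, chr10:76623631-76623830, minus strand: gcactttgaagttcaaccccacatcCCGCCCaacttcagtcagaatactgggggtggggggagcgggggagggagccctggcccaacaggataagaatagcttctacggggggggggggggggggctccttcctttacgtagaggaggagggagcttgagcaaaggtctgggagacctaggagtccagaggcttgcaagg
Col6a3, chr1:90843972-90844171, minus strand: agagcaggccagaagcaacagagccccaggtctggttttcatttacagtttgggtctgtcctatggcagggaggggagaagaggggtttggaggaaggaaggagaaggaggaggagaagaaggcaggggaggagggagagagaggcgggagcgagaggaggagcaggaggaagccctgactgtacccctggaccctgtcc
Col1a1, chr11:94936024-94936223, plus strand: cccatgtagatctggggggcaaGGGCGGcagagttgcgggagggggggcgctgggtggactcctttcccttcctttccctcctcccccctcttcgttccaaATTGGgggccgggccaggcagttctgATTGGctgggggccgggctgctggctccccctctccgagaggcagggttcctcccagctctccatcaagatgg
Col1a2, chr6:4504614-4504813, plus strand: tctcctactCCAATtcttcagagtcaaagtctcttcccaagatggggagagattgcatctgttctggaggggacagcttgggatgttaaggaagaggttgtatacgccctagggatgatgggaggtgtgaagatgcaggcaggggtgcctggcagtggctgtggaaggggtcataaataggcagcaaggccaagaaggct
The central 200 bases of both gene body peaks follow in the same form.
Col14a1, chr15:55441021-55441220, plus strand: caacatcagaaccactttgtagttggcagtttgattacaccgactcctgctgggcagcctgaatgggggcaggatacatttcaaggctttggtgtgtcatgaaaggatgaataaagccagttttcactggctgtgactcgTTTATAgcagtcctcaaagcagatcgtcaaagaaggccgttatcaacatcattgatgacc
Col8a1, chr16:57690371-57690570, minus strand: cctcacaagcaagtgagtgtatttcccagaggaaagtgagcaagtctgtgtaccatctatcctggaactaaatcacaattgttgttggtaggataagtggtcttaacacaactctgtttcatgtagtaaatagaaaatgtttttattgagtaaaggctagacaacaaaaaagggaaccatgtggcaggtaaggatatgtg

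Both strands were searched for 9 motifs. Those tied to stress and growth signals were the FOXO motif GTAAACA, the E2F motif spelled GCGGGAA, the TFEB motif spelled TCACGTG, the cyclic AMP response element (CRE) with the letters TGACGTC, and the AP-1 motif in the form TGAGTCA. Those of general promoters were the CCAAT box, the GC box spelled GGGCGG and the TATA box in the form TATAAA, and the SMAD motif, which answers to TGF-beta, was searched as CAGACA. The match upstream of Col6a1 is the FOXO motif GTAAACA, which begins 87 bases before the TSS, on chromosome 10 from 76726249 to 76726255, and lies 23 bases from the centre of the peak. FOXO3a is the transcription factor that the study examined as a partner of methylated Pontin. Within the same 200 bases, Col6a1 was the 1 gene of 44 collagen genes with this motif, and the share among 21938 protein-coding promoters was 2.05%, close to the 2.27% of the collagens. With 500 bases upstream Col6a1 was again the only collagen gene with the motif, against 6.16% of all promoters, and with 1000 bases Col19a1 and Col25a1 had it as well, against 12.4%. In the central 200 bases of all 4311 peaks the motif was found in 2.04%. The study's own motif analysis of its methylated Pontin ChIP found FOXO3a response elements to be the most significant. Its enrichment measure is unlike a count of exact matches to a single spelling, so these shares cannot be set against that result. The whole peak of Col6a1 also holds 1 match to the AP-1 motif. A match of letters is not a binding site, and matches of this kind were found in promoters without a peak. The upstream bases of Col1a1 hold 2 matches to CCAAT, written as its reverse complement ATTGG, and 1 to the GC box. Col1a2 has 1 match to CCAAT and Col6a2 has 1 to the GC box, while Col6a3 has no match to any of the 9 motifs. Over the family, the GC box was present upstream of 21 collagen genes (47.7%, against 37.5% of all promoters), CCAAT of 14 (31.8% against 31.7%), the SMAD motif of 9 (20.5% against 12.2%), the E2F motif of 4 (9.09% against 4.08%), the TATA box of 4 (9.09% against 9.29%), the CRE of 1 (2.27% against 3.07%), and the TFEB and AP-1 motifs of none (3.09% and 3.20% of all promoters).

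Col6a1 encodes the alpha 1 chain of collagen VI, which joins the chains of Col6a2 and Col6a3 in the beaded filaments around cells. It lies on the minus strand of chromosome 10 of GRCm38, and its peak, from 76726035 to 76726515, is centred 107 bp upstream of the first TSS and reaches into exon 1. Its signal was 14.0 tags per 10000000, from 29.1 tags (95% Poisson interval 19.5 to 41.7, which covers counting error and nothing else). The authors' table puts it at 9.03-fold over the input (p = 6.19e-12, the authors' Poisson p-value) and 4.91-fold over the surrounding 10 kb, where the limit was 4-fold. Whether that input came from starved cells or from cells in normal media is not stated outright by the sources used here, and this holds for every fold over input below. By signal it ranked above 45.5% of all peaks, while its score of 24.5 was below the median score of 26. The partner Col6a2, the neighbour of Col6a1 on the same strand, had its nearest peak 103 kb away, and this was the peak of Col6a1. Col6a3, on chromosome 1, had its nearest peak at 155 kb, by the promoter of Lrrfip1. The distances of the alternative collagen VI chains Col6a4, Col6a5 and Col6a6 to the nearest peak were 74.5, 211 and 166 kb.

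Both gene body peaks were intronic at their centre and of similar height to that of Col6a1. Col14a1 encodes a collagen with interrupted helices that binds the surface of fibrils. Its peak, on chromosome 15 from 55440881 to 55441361, lay 133 kb downstream of the first TSS and 7.71 kb from the closest internal TSS, and it reached into the coding exon 25. It had 13.0 tags per 10000000 (27.0 tags, 95% Poisson interval 17.8 to 39.3) and the authors' table lists 8.41-fold enrichment over input and 4.65-fold over its surroundings. An antisense gene, 1700040F17Rik, has a TSS 2101 bp from the centre of this peak, so that it could be counted as a promoter peak of that gene. Col8a1 encodes a short chain of the hexagonal networks found in the cornea and in vessel walls. Its peak, on chromosome 16 from 57690231 to 57690711, lay 64.3 kb downstream of the first TSS, in an intron and without exon sequence. It had 14.2 tags per 10000000 (29.5 tags, 95% Poisson interval 19.8 to 42.2) and its listed enrichment was 9.19-fold over input and 5.51-fold over its surroundings. The 3 intervals overlap, so the collagen peaks cannot be ranked by height at this depth, and each contains the median of all peaks. The GC content was 49.5% in the peak of Col6a1, 45.3% in that of Col14a1 and 39.1% in that of Col8a1.

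**Figure D1:**
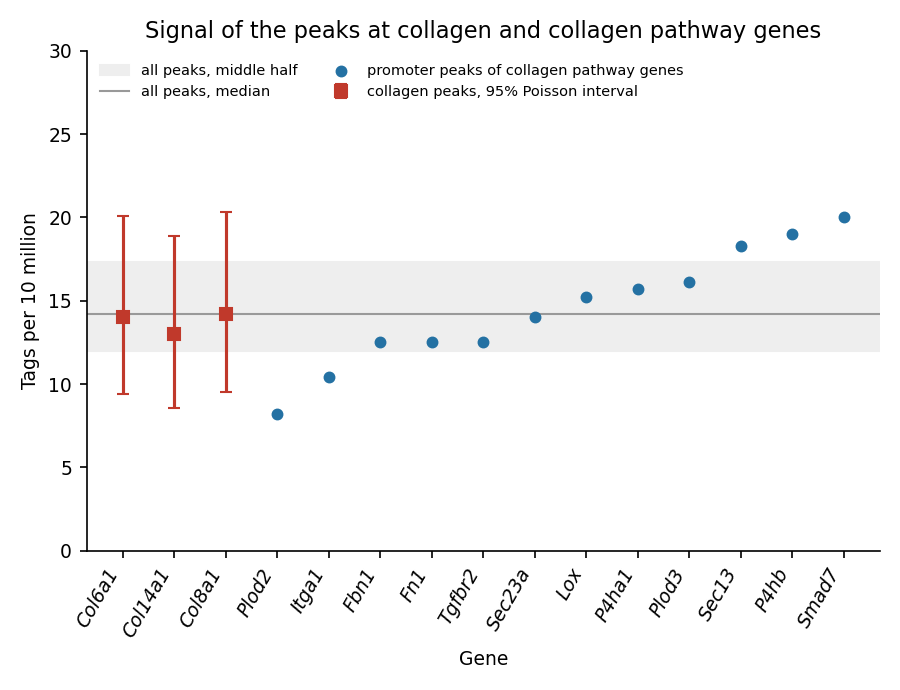
The y axis gives the signal in tags per 10000000 for the 3 collagen peaks (squares, bars are 95% Poisson intervals) and for the promoter peaks of 12 genes that make, bind or regulate collagen (circles). The collagen peaks lie between 13.0 and 14.2, inside the middle range of all peaks (shaded, 12.0 to 17.3, with the median as a line), and the circles range from 8.19 to 20.0.

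Collagen genes are long, with a median of 114 kb against 17.4 kb for all protein-coding genes, and thus offer more sequence in which a gene body peak can fall. Outside the promoter windows their bodies span 4.78 Mb with 0.418 peaks per Mb, while the bodies of all protein-coding genes had 0.601 peaks per Mb. Among other protein-coding genes of like length, 5.43% had a gene body peak, which would correspond to 2.39 of 44 genes. This comparison by length was added after the data had been seen. The 2 collagen genes with such a peak were thus close to that number.

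The 11 fibrillar collagens had no promoter peak and no gene body peak. The type I chains Col1a1 and Col1a2, which form the most abundant collagen of fibroblasts, had their nearest peaks 34.4 kb and 64.1 kb away, both downstream of the gene. The peak nearest to Col1a1, on chromosome 11 from 94979496 to 94979976, was 3409 bp from a TSS of Sgca, and the peak nearest to Col1a2 was at the promoter of Casd1. Col3a1, the chain of collagen III, and Col5a2, a chain of the collagen V that starts fibrils, are neighbours on chromosome 1 and shared their nearest peak, from 45526497 to 45526977. This peak lay 23.5 kb upstream of Col5a2, which is the closest protein-coding gene to it, and 187 kb from Col3a1. With 11.8 tags per 10000000, its listed enrichment over input was 4.36-fold, near the limit. The other main chain of collagen V, Col5a1, had its nearest peak at 410 kb, the farthest of the fibrillar class. The closest was that of Col11a2, a cartilage collagen, at 7.94 kb, and this peak sits 4 bp from a TSS of the zinc transporter gene Slc39a7.

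The 6 genes of collagen IV had no promoter peak and no gene body peak either. They are arranged as head-to-head pairs with closely spaced start sites, 21 bp apart for Col4a1 and Col4a2, 72 bp for Col4a3 and Col4a4 and 1309 bp for Col4a5 and Col4a6, so the 6 genes represent 3 promoter regions and not 6 separate observations. Col4a1 and Col4a2, the chains found in nearly all basement membranes, had their nearest peaks 47.1 and 55.7 kb away. Their promoters had the highest GC content of the family, at 70.9% and 70.5%. For Col4a3 and Col4a4 the nearest peak was that of Agfg1, at 124 and 253 kb, and for Col4a5 and Col4a6 on the X chromosome the distances were 718 and 672 kb. All of these distances run from the closest TSS of any transcript of the gene, not from the paired first TSS. From the first TSS to the same peaks they were 149 kb for Col4a1 and 184 kb for Col4a2. They were 253 kb for both Col4a3 and Col4a4, and 901 and 953 kb for Col4a5 and Col4a6. The share of protein-coding genes with a TSS of another protein-coding gene within 2.5 kb was 16.8%, and in the collagen family these 6 genes were the only ones.

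The 27 other collagens held the 1 promoter peak and both gene body peaks. Their promoter share was 3.70%, and the 3 classes differ by this single gene, so the classes cannot be told apart by promoter peaks. The median distance to the nearest peak was 64.1 kb in the fibrillar class (range 7.94 to 410 kb), 189 kb in the basement membrane class (47.1 to 718 kb) and 85.7 kb in the other collagens (0.107 to 1034 kb). These ranges overlapped widely. The most remote gene was Col22a1, a collagen of tissue junctions. Adding Col7a1, Col15a1 and Col18a1, which act in the basement membrane zone, to the basement membrane class left its number of promoter peaks at 0 of 9.

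**Figure D2:**
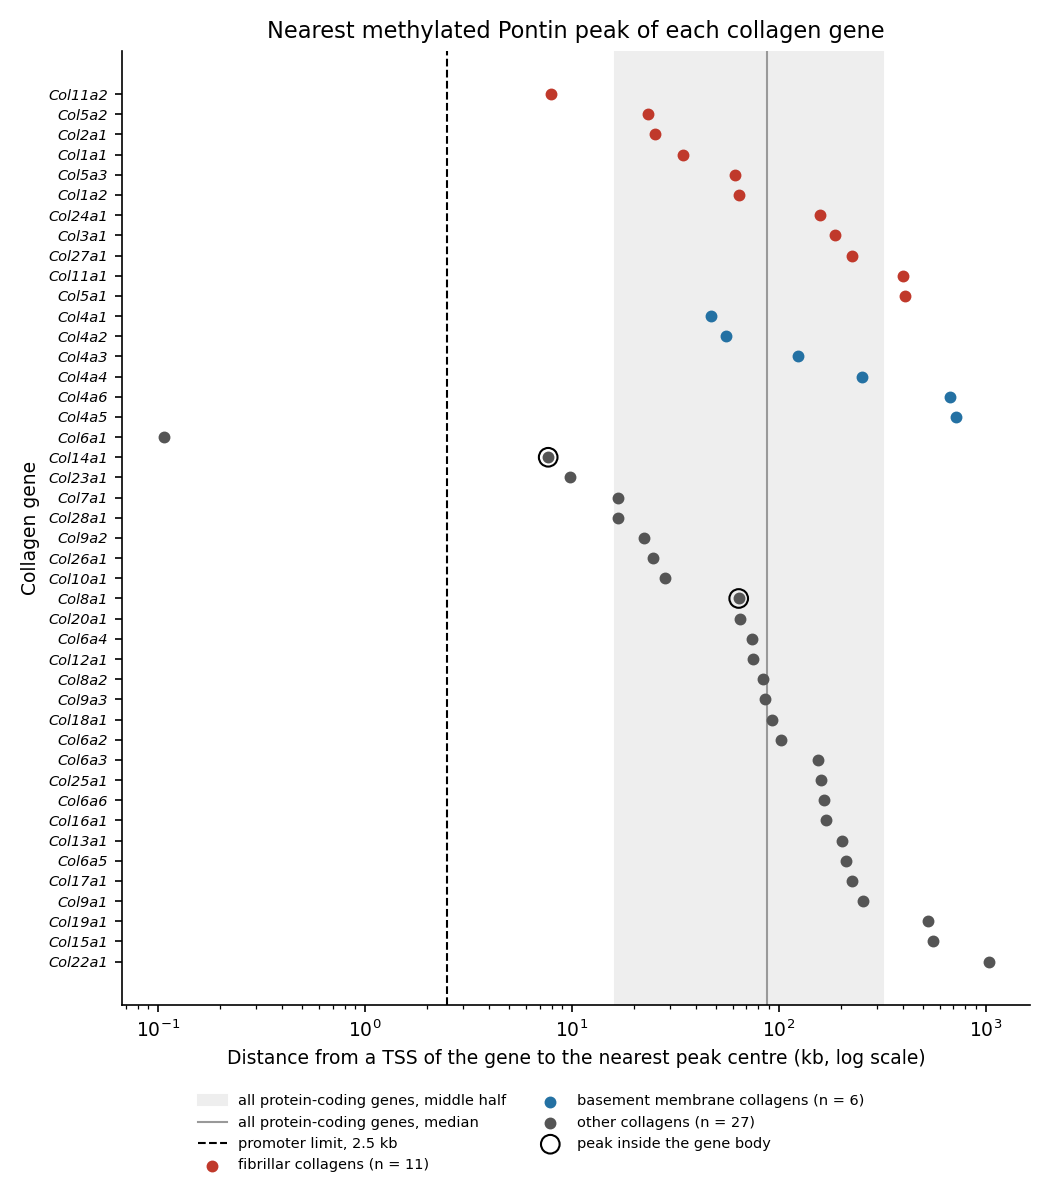
Each point is a collagen gene, and the x axis gives the distance in kb (log scale) from any of its start sites to the centre of the nearest peak, by class. Col6a1 is the only gene left of the dashed limit of 2.5 kb, circles mark Col14a1 and Col8a1, whose nearest peak is inside the gene, and the shaded band is the interquartile range of all protein-coding genes (16.3 to 321 kb, line at the median of 87.7 kb).

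The median distance to the nearest peak over the 44 collagen genes was 89.3 kb, similar to the 87.7 kb of all protein-coding genes. Within 100 kb of a TSS a peak was found for 23 collagen genes (52.3%) and for 52.2% of all protein-coding genes. Within 10 kb the numbers were 4 genes (9.09%) against 21.1%, and within 50 kb they were 13 genes (29.5%) against 39.4%. At 200 kb they were 31 genes (70.5%) against 65.9%, and at 500 kb 39 genes (88.6%) against 81.7%. The collagen share was therefore below that of all genes close to the TSS, about equal to it at 100 kb and slightly above it at wider limits. With 44 genes, some of which share a promoter region, the gap at the wider limits amounts to few genes.

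**Figure D3:**
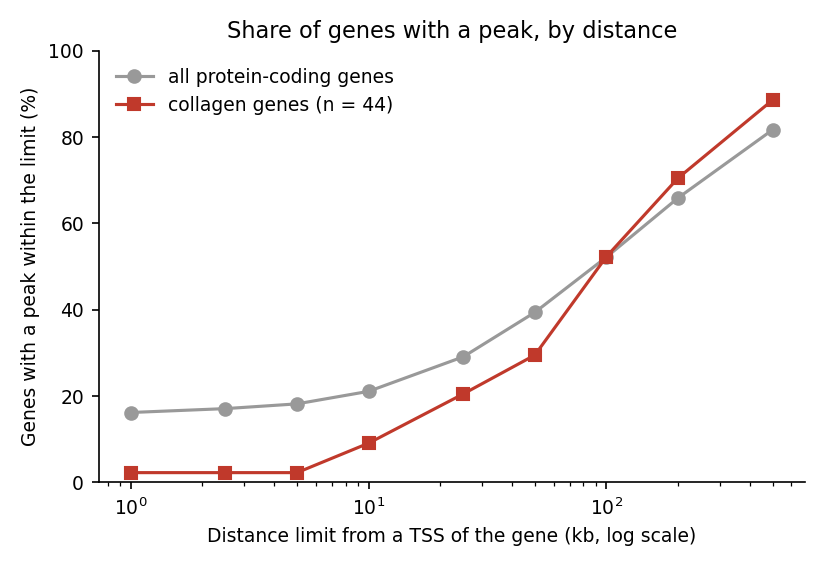
The x axis is the distance limit from a TSS in kb (log scale), and the y axis is the percentage of genes with a peak within it. Collagen genes (squares) stand at 2.27% at limits of 1, 2.5 and 5 kb, where all protein-coding genes (circles) stand at 16.2%, 17.1% and 18.2%, and both reach about 52% at 100 kb.

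Of the 41 collagen genes without a peak, 31 had as their nearest peak one within 2.5 kb of a TSS of another protein-coding gene. This share of 75.6% was close to the 77.7% among all 17615 protein-coding genes without a peak of their own on chromosomes with peaks, and to the 74.5% of all peaks that lie this near a protein-coding TSS. The 5 with the shortest distances were Col11a2 at 7.94 kb, Col23a1 at 9.79 kb, Col7a1 at 16.7 kb, Col28a1 at 16.8 kb and Col9a2 at 22.3 kb. In all of these the peak sat at the promoter of a neighbour. Besides Slc39a7, the neighbours were Phykpl, Smap2, Uqcrc1 (a subunit of respiratory complex III) and Mios (a component of the nutrient-sensing GATOR2 complex). Their peaks had 17.8, 16.9, 16.4, 14.0 and 9.15 tags per 10000000, in the order Slc39a7, Phykpl, Uqcrc1, Mios and Smap2. In the authors' table the peak at Slc39a7 was 46.1-fold over input, and the one at Uqcrc1 was 10.6-fold. With signals as close as 17.8 and 16.4, these folds differ mainly through the input. A fold this high can rest on very few input tags, and input tag counts are not given here.

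Promoter peaks of methylated Pontin were more frequent at GC-rich promoters, so the collagen genes were set beside other protein-coding genes of like GC content in the 500 bp on either side of the first TSS. The median promoter GC content was 55.9% for collagens and 54.7% for all protein-coding genes. Among other protein-coding genes, weighted to the GC content of the collagens in bins of 2 percentage points, 18.3% had a promoter peak, which would correspond to 8.06 of 44 genes against the 1 found. In the bins from 55 to 75%, between 20.6% and 25.8% of the other genes had a peak, and none of the 12, 9, 2 and 2 collagen genes in these bins of 5 percentage points had one. Col6a1 itself had a promoter GC content of 51.4%, and 17.8% of other genes in its bin, from 50 to 55%, had a peak. The CpG content differed more than the GC content. The ratio of observed to expected CpG had a median of 0.43 in collagen promoters and of 0.55 in all, and that of Col6a1 was 0.22. Weighted on this ratio in place of GC content, which was added after the data had been seen, 13.4% of other genes had a promoter peak, corresponding to 5.90 of 44. Without the genes that have another protein-coding TSS within 2.5 kb, also added later, the share of genes of like GC content was 15.7%.

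**Figure D4:**
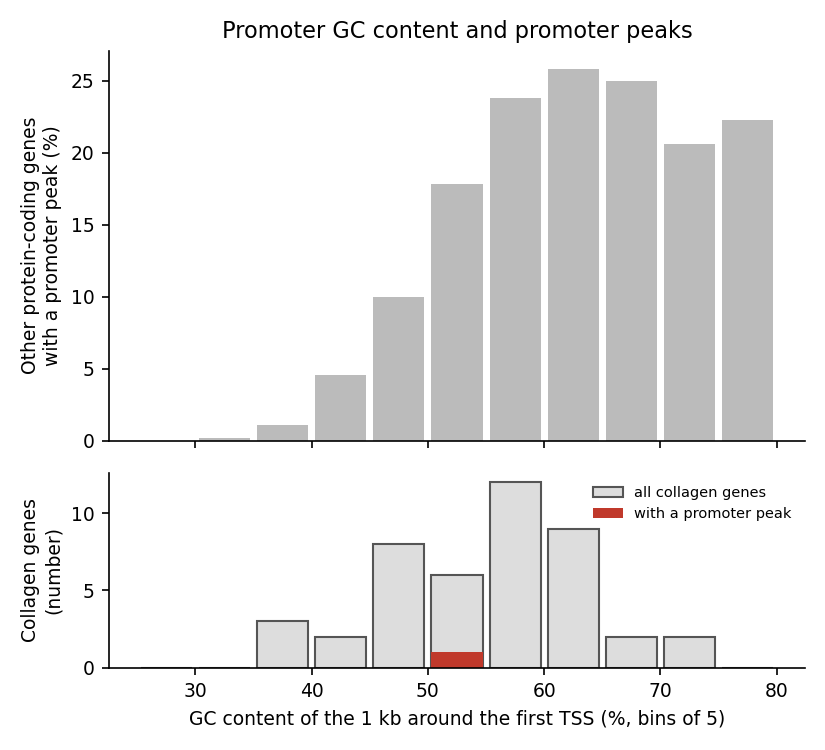
The upper panel gives the percentage of other protein-coding genes with a promoter peak by promoter GC content in bins of 5 percentage points, and the lower panel gives the number of collagen genes in each bin (light bars) and of those with a promoter peak (dark). The upper bars rise to between 20.6% and 25.8% from 55 to 75% GC, where no collagen gene had a promoter peak.

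The genes that make, process, break down and bind collagen were examined with the same limits. Of 91 genes listed, 90 were found among the protein-coding genes (Mmp1a was not found under this symbol), and 12 of them (13.3%) had a promoter peak, against the 17.1% of all protein-coding genes and 20.1% of genes of like GC content. The peak was closest to the listed gene itself in all 12 cases. The enzymes that modify collagen chains had peaks in 4 of 15 genes. These were P4ha1 and P4hb, both subunits of prolyl 4-hydroxylase, with 15.7 and 19.0 tags per 10000000, and the lysyl hydroxylases Plod3 and Plod2, with 16.1 and 8.19. The Plod3 peak was centred 4 bp from a TSS, with 10.4-fold enrichment over input in the table. Among chaperones and secretion factors, 2 of 9 had a peak, the COPII coat genes Sec13 (18.3 tags per 10000000) and Sec23a (14.0). Serpinh1, the collagen chaperone HSP47, was not among them.

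Downstream of secretion, none of 8 genes for procollagen processing and none of 9 for collagen breakdown and uptake had a promoter peak. Groups of this size can hold no peak at the background of 17.1%, and the breakdown genes had a median promoter GC content of 46.3%, in a bin where 10% of other genes had a peak. Of the 5 lysyl oxidases, which cross-link collagen, Lox itself had one, with 15.2 tags per 10000000 and 4.03-fold over its surroundings in the authors' table, just above the limit. Of the 7 collagen receptors, Itga1, the alpha 1 integrin, had a promoter peak with 10.4 tags per 10000000 and also a gene body peak. Of 26 other matrix genes, Fn1 (fibronectin) and Fbn1 (fibrillin-1) had a promoter peak, each with 12.5, and Hspg2 (perlecan) had a gene body peak with 19.5. In TGF-beta signalling, which raises collagen production in fibroblasts, 2 of 11 genes had a peak. They were the receptor gene Tgfbr2, with 12.5 tags per 10000000, and the inhibitor gene Smad7, with 20.0, which was 25.9-fold over input in the authors' table. That fold too can rest on very few input tags. Of the 90 pathway genes found, 5 had a promoter peak at least 8-fold over input, all of them among the 12 above. They are Plod3, Sec13, Sec23a, Lox and Smad7. At this limit the list keeps 2412 of the 4311 peaks, and the share of all protein-coding genes with a promoter peak is 9.92%. The signals of the 12 promoter peaks, from 8.19 to 20.0 with a median of 14.6, enclosed those of the collagen peaks.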

How the data were processed

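Bowtie2 was used by the authors for alignment to mm10 (GRCm38) and HOMER 4.7.2, per the submitters' processing notes, for calling peaks. The study's methods call the input a control and the file header gives a directory name that the labels do not explain, so which of the 2 inputs was used is not stated outright. Their limits were a false discovery rate of 0.001 (tag threshold 18), a p-value of 0.0001 and 4-fold enrichment, both over input and within the surrounding 10 kb. The deposited signal is a tag count per 10000000 tags. The deposited score, both folds (ratios) and the Poisson p-value over input are also the authors' values. A further 5 measured columns were not used. Distances were computed from peak centres to all TSSs of each gene in GENCODE vM21, and GC content and motifs from GRCm38.p6, whose chromosomes match the build of the peaks. Shares for like genes used all genes of a bin, weighted to the collagens, and none drawn at random. Poisson intervals cover counting error only. Columns were assigned to the ChIP library because the table carries its title.

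The members, gene lists and motifs were chosen with earlier results of these data known. Named were all collagen genes with a peak, the 5 closest without one, the main fibroblast collagens and pathway genes with a promoter peak. Others were named after their values had been seen. Alternatives covered distances, TSS sets, peak limits, classes and matching. As a check of the code, 500 simulated peaks were planted inside the promoter limit, and every gene given one was recovered. This follows from where they were planted and says nothing of how many real sites are found. The tools were pandas 2.3.3, SciPy 1.17.1 and NumPy 2.4.6 under Python 3.11.15, with figures drawn in matplotlib 3.10.9.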

Additional observations from a re-analysis of the deposited data

How the results depend on the processing

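No paired analysis was possible because no condition has a second library and only the starved ChIP was used. The count of 1 collagen gene with a promoter peak stayed at 1 with limits of 1 and 5 kb, with protein-coding transcripts, the first TSS or the peak edge, and with peaks at least 8-fold over input. The peak of Col6a1, at 9.03-fold, was not far above the 8-fold limit, and counting error of the input was not taken into account. Among the 2271 peaks with a score of at least 26 the count of collagen genes with a promoter peak was 0, and so was the count of genes with a gene body peak, because all 3 collagen peaks scored lower. All protein-coding genes then had promoter peaks in 10% and gene body peaks in 0.979%, and at 8-fold in 9.92% and 1.08%. Counting only peaks over 2.5 kb from a TSS of any gene left 1 gene body peak, that of Col8a1, against 1.7% of all genes. The share of like genes with a promoter peak, 18.3%, was 19.4% with GC content in 200 bp on either side, 19.2% with the highest GC content of any TSS, and 19.2% when the number of TSSs was matched too. It was 13.4% matched on the CpG ratio and 15.7% without genes near another TSS, both added after the data had been seen. The number of pathway genes with a promoter peak fell from 12 to 5 at 8-fold over input, as the share of all protein-coding genes fell from 17.1% to 9.92%. The cause of these changes in shares was not tested. The median peak had 29.5 tags, and regions below the authors' limits are not listed.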
